A study of Bos taurus with 20 samples.

Results

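The 5 miRNAs described here are bta-miR-106b, bta-miR-93 and bta-miR-25, which lie together as a cluster, and bta-miR-32 and bta-miR-92b, which share the seed of miR-25. They were chosen by name, for their place in the genome and their seed, from the 1029 mature miRNAs counted in bull spermatozoa, and all 5 were found. Small RNA was sequenced from frozen-thawed semen of 20 mature Holstein-Friesian bulls used in artificial insemination, 10 of high fertility (HF) and 10 of low fertility (LF), with 1 library per bull and no treatment in either group. Fertility was a field score adjusted for herd, cow and service factors, all bulls had passed routine checks of motility and morphology, and straws of several ejaculates were pooled per bull before other cells were lysed with detergent. The question put by the design was whether the miRNAs carried by spermatozoa differ between HF and LF bulls. Because spermatozoa of a bull were sequenced in bulk, fewer cells carrying a miRNA and less of it per cell cannot be told apart.

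A mature miRNA guides the Argonaute protein to messenger RNAs through its seed, a short stretch near its 5′ end, and miRNAs with the same seed form a family that shares most of its targets. miR-106b and miR-93 have the seed of miR-17 and are known to repress the cell cycle inhibitor CDKN1A, whereas miR-25, miR-32 and miR-92b have the seed of miR-92a and are known to repress the pro-apoptotic gene BCL2L11. The cluster is a paralog of the miR-17-92 cluster, and both are known to be active in dividing spermatogonia of mice. Spermatozoa no longer transcribe their genes, so the miRNAs measured in them were made earlier in the testis or were taken up on the way through the epididymis.

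In the bovine RefSeq annotation (assembly ARS-UCD2.0, used here for names and neighbours only), the genes MIR106B, MIR93 and MIR25 all lie within MCM7, which encodes a subunit of the replicative helicase, and each is within 10 kb of the other two. MIR32 lies within TMEM245, a gene for a membrane protein, and has no other miRNA gene within 10 kb. No annotated gene spans MIR92B, and no miRNA gene lies within 10 kb of it. The 5 miRNAs therefore come from 3 separate places in the genome.

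Levels are given as the normalized count, which is the number of reads of a miRNA relative to all miRNA reads of the library, on the scale of CPM, after the authors' scaling by the trimmed mean of M-values (TMM). The reads behind them numbered between 103204 and 3097581 per HF library (median 1092881) and between 310186 and 1640178 per LF library (median 1085742). As a floor for what could be seen, 3 reads corresponded to 1.19 normalized counts where sequencing was deepest and to 27.6 where it was shallowest, in HF replicate 17. Such floors cover counting error only, since the reads carry no molecular identifiers. The miRNAs that mark sperm and spermatogenic cells (bta-miR-34c, bta-miR-34b and bta-miR-449a) were found in all 20 bulls, with a summed normalized count between 25773 and 76838.

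Together the 5 miRNAs made up 0.966% ± 0.206 (SD, n = 20 bulls) of the normalized counts. In the 10 HF bulls the share averaged 0.893% ± 0.211 (SD), and over the 10 LF bulls its average was 1.04% ± 0.181 (SD). miR-25 accounted for 65.5% ± 7.07 (SD, n = 20) of this sum, and within the MCM7 cluster alone it accounted for 84.7% ± 6.06 (SD, n = 20). The share of miR-25 in the cluster ran from 69.7% to 91.8% over the bulls, so in every bull most of the reads from the cluster were of miR-25.

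miR-25 was the most abundant of the 5 and ranked 22 of the 1029 miRNAs by mean level. Its normalized count was between 3511 and 11318 in HF bulls, with a median of 5874, and between 3658 and 9416 in LF bulls, with a median of 7354. Values of HF and LF bulls overlapped widely, and HF replicate 12 stood highest in either group. miR-25 rested on 382 to 21649 reads per library, so counting error was small for it.

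miR-32, from its own locus in TMEM245, ranked 46. Its normalized count ran from 1489 to 2683 in HF bulls (median 1893) and from 1405 to 3202 in LF bulls (median 2049). It was the steadiest of the 5, with a coefficient of variation of 21.6% over the 20 bulls, and its lowest and highest bulls differed 2.28-fold.

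miR-93 ranked 61. In HF bulls its normalized count was between 633 and 1690.3 with a median of 984, and in LF bulls it was between 525 and 1391.8 with a median of 1145. Of the LF bulls, 4 lay between 525 and 806 and the other 6 between 1115.8 and 1391.8, while the HF bulls also took values between these ranges.

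miR-106b, whose gene is a neighbour of MIR93, ranked only 175. Its normalized count ran from 25.1 to 122 in HF bulls (median 62.9) and from 27.8 to 158 in LF bulls (median 64.4). The medians of the groups were close, and the 20 bulls spread over a 6.30-fold range. Between 6 and 286 reads per library stood behind these values.

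miR-92b, the least abundant, ranked 189. Its normalized count was between 0 and 111 in HF bulls (median 47.6) and between 21.6 and 116 in LF bulls (median 64.3). It had 10 or more reads in 19 of the 20 bulls and no read in HF replicate 17, the shallowest library, where 3 reads would have given 27.6. That bull therefore does not show whether miR-92b was lower there than in the HF bull with the next lowest value, HF replicate 2, at 16.3.

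**Figure D1:**
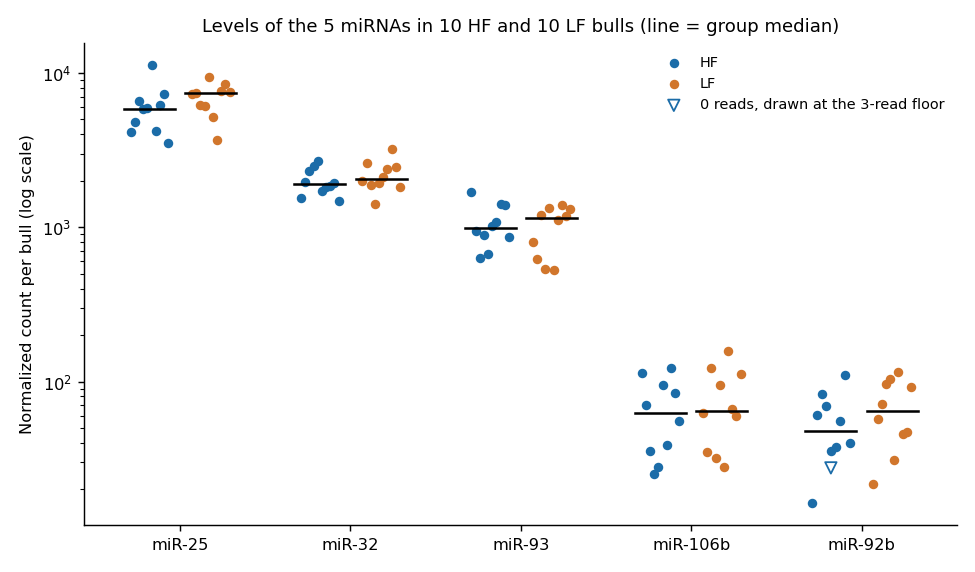
Normalized count (log scale) of each of the 5 miRNAs in the 10 HF bulls (blue) and the 10 LF bulls (orange), with a line at each group's median and an open triangle at the level of 3 reads for the library with no read of miR-92b. miR-25 lies between 3511 and 11318 and miR-106b between 25.1 and 158, and HF and LF bulls overlap for all 5.

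The order of the levels was nearly the same from bull to bull. miR-25 was above miR-32 in 20 of 20 bulls, by 3.02-fold on the mean of log2(normalized count + 1). miR-32 was above miR-93 in 19 of 20 bulls, by 2.09-fold, the exception being HF replicate 2. miR-93 was above miR-106b in 20 of 20 bulls, by 15.5-fold. miR-106b and miR-92b could not be ordered, since miR-106b was the higher in 12 of 20 bulls and the mean log2 ratio of 0.46 was smaller than its SD of 1.63. These are ratios of sequenced reads, and adapters are known not to join all miRNAs with the same efficiency.

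Most of the spread between bulls was larger than counting error. The SD of the log2 normalized count over the bulls with a read was 0.45 for miR-25, where counting error alone would give 0.025. For miR-32 it was 0.30 against 0.041, and for miR-93 it was 0.50 against 0.061. miR-106b spread more, with 0.84 against 0.25. For miR-92b the SD was 0.80 against 0.21 over 19 bulls. The bulls thus differed in all 5 miRNAs by more than counting sets, which does not cover losses in RNA extraction or PCR.

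Each miRNA was next placed within its seed family. The miR-25 family took up 0.923% ± 0.207 (SD, n = 20) of the normalized counts. miR-25 held 68.7% ± 6.82 of it and miR-32 held 23.2% ± 5.11. miR-92a, which has genes in both the miR-17-92 and the miR-106a-363 clusters, held 6.00% ± 2.23, bta-miR-363 held 1.43% ± 0.506 and miR-92b held 0.655% ± 0.394. bta-miR-367 was found in 1 of 20 bulls. In these spermatozoa the family was thus mostly miR-25 and miR-32, and miR-92b added under 1.58% of it in every bull.

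The miR-17 family was the smaller, at 0.208% ± 0.0703 (SD, n = 20) of the normalized counts. miR-93 held 49.9% ± 4.99 of it and bta-miR-20a, of the miR-17-92 cluster, held 37.8% ± 4.04. bta-miR-17-5p held 8.57% ± 2.04 and miR-106b held 3.29% ± 1.02. bta-miR-106a and bta-miR-20b, of the X-linked paralog cluster, held 0.263% ± 0.183 and 0.217% ± 0.154. These relatives differ from each other by few bases, so reads with an error may have been counted on a neighbour. Values of miR-92a included fractions of a read, whereas all 100 values of the 5 miRNAs were whole reads within 0.01.

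**Figure D2:**
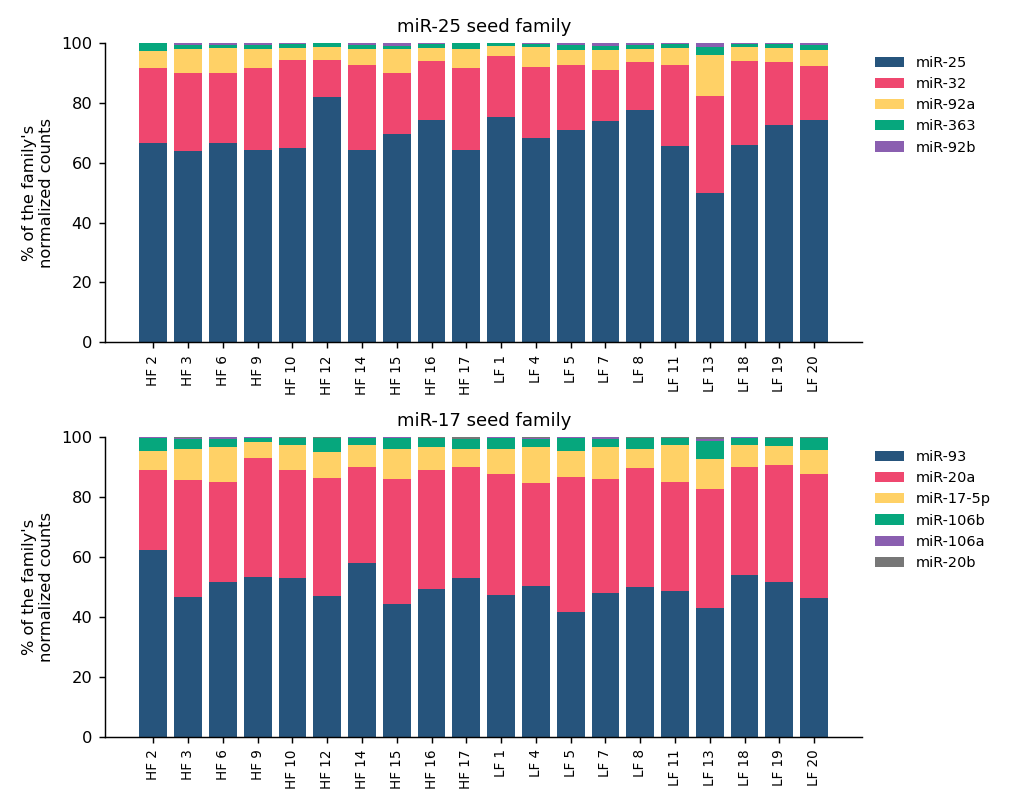
Make-up of the miR-25 seed family (top) and the miR-17 seed family (bottom) in each of the 20 bulls, as the percent of the family's summed normalized counts (bars add to 100%). miR-25 holds between 49.8% and 81.8% of its family and miR-93 between 41.5% and 62.3% of its own, with LF replicate 13 lowest for miR-25.

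HF and LF bulls were then compared for the 5 miRNAs with limma on log2(normalized count + 1), fitted on the 435 miRNAs that passed the filter on low values. All 5 passed it. None of the 5 had an unadjusted p-value under 0.05, against 15 of 435 miRNAs tested (3.45%), of which 7 (1.61%) were higher and 8 (1.84%) were lower in HF bulls. With a fold change over 1.5 added, 9 of 435 (2.07%) were called. After Benjamini-Hochberg adjustment over all 435, 0 were called (0%), and edgeR's likelihood ratio and quasi-likelihood tests and DESeq2 also called 0. HF and LF values overlapped for all 5, as they did for all 435 (0% without overlap).

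In the HF bulls miR-25 averaged 5982 ± 2232 normalized counts (SD over 10 bulls), and in the LF bulls it averaged 6886 ± 1653 (SD over 10 bulls). The log2 fold change (HF over LF) was −0.24 with a standard error of 0.19 and a 95% interval from −0.63 to 0.15 (limma, p = 0.22, adjusted p = 0.94). Of the 10 HF bulls, 9 lay below the LF median, and the exception was HF replicate 12. At least 9 of 10 HF bulls lay below the LF median for 13 of 435 miRNAs (2.99%) and on either side of it for 37 (8.51%). Leaving out HF replicate 12 gave a log2 fold change of −0.35 (limma, p = 0.054), which was the smallest p-value that leaving out any of the bulls gave for one of the 5 miRNAs.

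The partners of miR-25 in the MCM7 cluster had intervals that included 0 as well. miR-93 averaged 1059.9 ± 341 normalized counts (SD over 10 HF bulls) against 999.8 ± 343 (SD over 10 LF bulls), which gave a log2 fold change of 0.11 with an interval from −0.34 to 0.56 (limma, p = 0.62, adjusted p = 0.96). Its HF median lay below its LF median although its HF mean lay above. miR-106b averaged 66.9 ± 35.9 against 77.1 ± 43.6 (SD over 10 bulls each), a log2 fold change of −0.19 with an interval from −0.91 to 0.53 (limma, p = 0.59, adjusted p = 0.96). A 1.5-fold difference in either direction lay outside the interval of miR-93, whereas for miR-106b a level 1.5-fold lower in HF bulls lay inside it.

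miR-32 averaged 1983 ± 397 normalized counts over the 10 HF bulls and 2177 ± 499 over the 10 LF bulls (mean ± SD). Its log2 fold change was −0.13 with an interval from −0.43 to 0.18 (limma, p = 0.40, adjusted p = 0.96), the narrowest of the 5. The averages of miR-92b were 50.8 ± 32.3 over the 10 HF bulls and 68.2 ± 32.6 over the 10 LF bulls (mean ± SD). Its log2 fold change of −0.84 had an interval from −2.05 to 0.37 (limma, p = 0.17, adjusted p = 0.94). HF replicate 17 set much of that value, since leaving it out gave −0.27 (limma, p = 0.43).

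The relatives of the 5 miRNAs were read from the same fit. All 4 relatives with the seed of miR-17 had log2 fold changes below 0, with a median of −0.12, and so did both tested relatives with the seed of miR-25, with a median of −0.15. In the miR-17-92 cluster 7 of 7 miRNAs were below 0 with a median of −0.12, and in the X-linked miR-106a-363 cluster 5 of 5 tested of 6 were, with a median of −0.14. None of these had an unadjusted p-value under 0.05, and the lists share members and bulls. Over all 435 miRNAs the median was 0.0051 and 49.9% lay below 0. Other short lists, of the marker miRNAs used below, also went wholly 1 way. All 6 epithelial markers lay below 0 with a median of −0.40, and 2 of them had an unadjusted limma p-value under 0.05. All 3 sperm markers, all 3 muscle markers and both tested red blood cell markers lay above 0. Of these only bta-miR-486, a red blood cell marker, had an unadjusted p-value under 0.05, with 0.57 (limma, p = 0.044, adjusted p = 0.94). The white blood cell markers were split, with 2 above and 2 below. The largest difference among the relatives was in bta-miR-17-3p, the other strand of the miR-17 hairpin, with −0.69 (limma, p = 0.091, adjusted p = 0.94). It had a median of 13.5 reads and no read in HF replicate 17. In that library 3 reads would have given 27.6, above its highest value in any bull, 24.8. The relatives used as paralogs in the ratios below had −0.14 (miR-17-5p), −0.10 (miR-20a) and −0.15 (miR-92a).

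**Figure D3:**
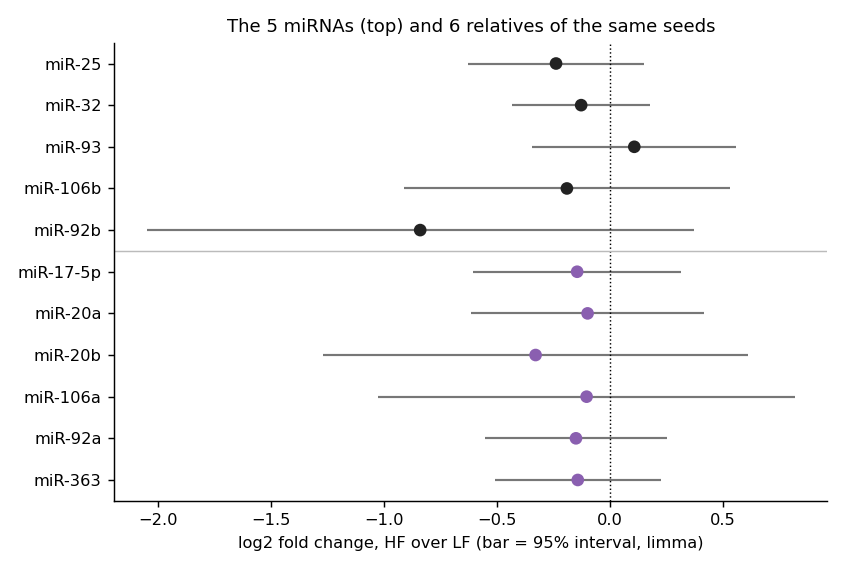
log2 fold change (HF over LF, points) with 95% intervals (bars) from limma for the 5 miRNAs (black) and 6 relatives with the same seeds (purple); the dotted line marks no difference. All intervals include 0, with miR-25 at −0.24 and miR-92b, which has the widest interval, at −0.84.

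Ratios between miRNAs of the same library depend little on how the libraries were scaled, since a scaling factor cancels but for the 1 added to each value. miR-25 exceeded miR-93 by 6.31-fold on average, and the ratio of these neighbours ran from 2.45-fold in HF replicate 2 to 11.8-fold in LF replicate 4. The log2 ratio of miR-25 to miR-93 differed between HF and LF bulls by −0.35 (two-sided permutation test with 100000 resamples, p = 0.24, adjusted p = 0.59 over 5 ratios). That of miR-93 to miR-106b differed by 0.30 (permutation p = 0.22, adjusted p = 0.59). miR-25 to miR-106b differed by −0.05 (permutation p = 0.91), miR-32 to miR-25 by 0.11 (permutation p = 0.62) and miR-92b to miR-25 by −0.60 (permutation p = 0.40). Set against their paralogs in the miR-17-92 cluster, miR-25 to miR-92a differed by −0.09, miR-92b to miR-92a by −0.69, miR-106b to miR-20a by −0.09 and miR-93 to miR-17-5p by 0.25, with adjusted permutation p-values between 0.51 and 0.76 over 4 ratios. Both ratios of miR-92b rested on HF replicate 17, and without it they differed by −0.11 (to miR-25) and −0.18 (to miR-92a). No ratio therefore differed between HF and LF bulls beyond the spread between bulls.

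The 3 miRNAs of the MCM7 cluster are cut from a single primary transcript, and how their levels moved from bull to bull was examined next, over 10 pairs of the 5 miRNAs. miR-106b and miR-93 rose and fell together. Over the 20 bulls Pearson's r of log2(normalized count + 1) was 0.79 (permutation p = 4e-05, adjusted p = 0.0004) and Spearman's rho was 0.76 (permutation p = 0.0002, adjusted p = 0.002). The relation held in both groups, with r = 0.79 in HF bulls (permutation p = 0.0079) and r = 0.83 in LF bulls (permutation p = 0.0044). Without the bulls farthest from the median of miR-106b, HF replicate 9 and LF replicate 13, r was 0.86.

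Over all 20 bulls miR-25 showed no relation to its cluster partners that passed the test. Its r with miR-106b was 0.06 (permutation p = 0.81) with a rho of 0.12 (permutation p = 0.63), and with miR-93 it was 0.08 (permutation p = 0.75) with a rho of 0.20 (permutation p = 0.40). Within the groups, miR-25 and miR-93 had an r of 0.29 (permutation p = 0.43) and a rho of 0.68 (permutation p = 0.035) in LF bulls, and an r of −0.06 (permutation p = 0.86) and a rho of −0.04 (permutation p = 0.92) in HF bulls. The LF rho was about that of miR-106b with miR-93 in the same bulls, 0.67 (permutation p = 0.040), and none of these within-group p-values was adjusted. For miR-25 and miR-106b the rho was 0.13 in HF and 0.05 in LF bulls. HF replicate 12, highest of all in miR-25, was at 1023 in miR-93, near the HF median. LF replicate 13, highest of all in miR-106b, was second lowest of all in miR-25. Whether the correlation of miR-106b with miR-93 was larger than that of either with miR-25 was not tested.

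miR-32 and miR-92b had no relation to the cluster or to each other that passed the test, with adjusted permutation p-values of r of 0.53 or more for all 7 pairs that hold one of them. The largest of these in size was that of miR-25 with miR-92b (r = 0.38, rho = 0.15). miR-106b and miR-32 had an r of −0.73 in HF bulls (permutation p = 0.020) and of 0.06 in LF bulls (permutation p = 0.87), and over all bulls r was −0.27 (permutation p = 0.26, adjusted p = 0.65). The difference between the groups was not tested.

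The 5 miRNAs and miR-92a were then set beside the miR-17-92 and miR-106a-363 clusters, a comparison of 35 pairs chosen after values of these data were seen. miR-106b followed miR-17-5p with r = 0.86 and rho = 0.90 and followed miR-20a with r = 0.86 and rho = 0.83. miR-93 followed miR-20a with r = 0.86 and rho = 0.85 and followed miR-17-5p with r = 0.62 and rho = 0.66. Both also followed miRNAs of other seeds in that cluster, bta-miR-19a (r = 0.76 for miR-106b and 0.84 for miR-93) and bta-miR-19b (r = 0.82 and 0.87). bta-miR-19b belongs to the miR-106a-363 cluster too, and its reads cannot be told apart between the clusters. Adjusted permutation p-values of r over the 35 pairs lay between 8.75e-05 and 0.016 for these 8 pairs, where 1e-05 was the smallest unadjusted p-value that the resampling could give. Because the pairs were chosen after values of the same bulls were seen, the p-values of all 35 are a description and not evidence. In each of the groups r was between 0.62 and 0.95 for all 8.

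The values were lower for the miR-25 family, although whether they differ from those of miR-106b and miR-93 was not tested. miR-25 had an r between 0.12 and 0.21 with each of miR-17-5p, miR-20a, miR-19a, miR-19b, miR-92a and miR-363. Within the groups these values ran from 0.14 to 0.53 in HF bulls and from −0.45 to 0.15 in LF bulls. The extremes were those of miR-25 with miR-92a, at 0.53 in HF bulls (rho = 0.67) and −0.45 in LF bulls (rho = −0.04). The difference between the groups was not tested. miR-92a had an r of 0.38 with miR-17-5p and of 0.13 with miR-20a, and its reads cannot be told apart between its genes in the miR-17-92 and the miR-106a-363 clusters. Its r with miR-106b was 0.18 and with miR-93 it was −0.06. Among the family, miR-92b followed miR-92a with r = 0.60 (permutation p = 0.0039, adjusted p = 0.016) and rho = 0.68 (permutation p = 0.001, adjusted p = 0.0044). The r was 0.61 in HF and 0.67 in LF bulls, and 0.70 without the shallow libraries HF replicate 17 and LF replicate 11. For miR-32 with miR-92a r was 0.35 (permutation p = 0.13, adjusted p = 0.35).

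**Figure D4:**
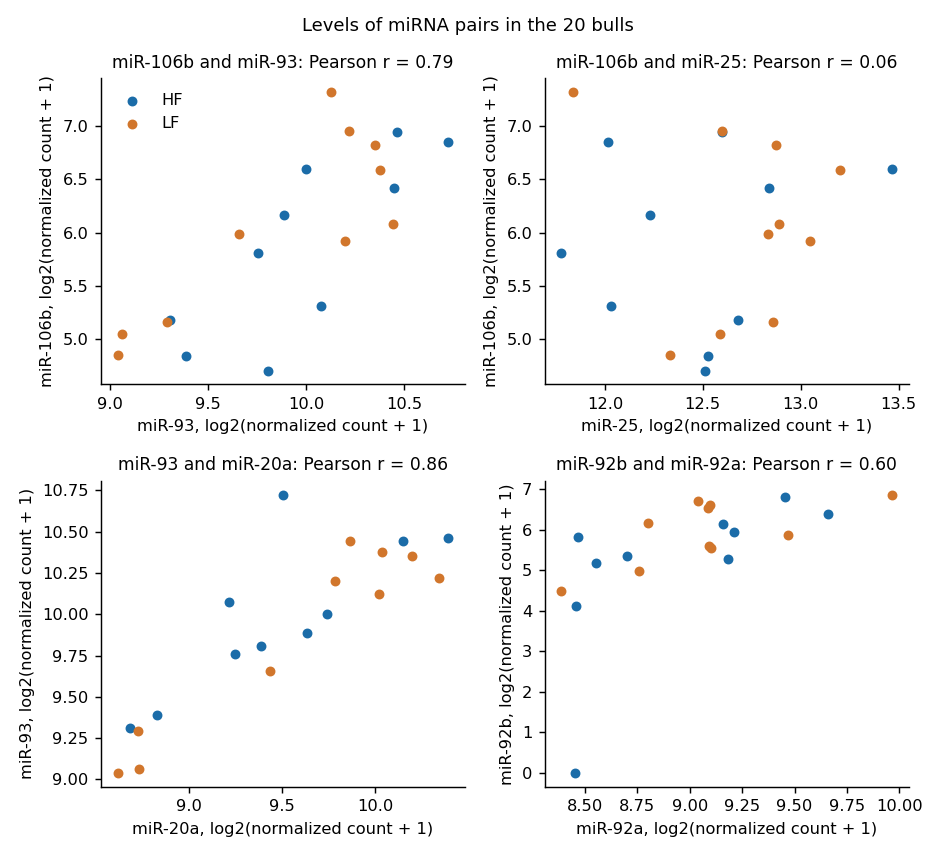
log2(normalized count + 1) of 4 pairs of miRNAs in the 20 bulls (HF blue, LF orange), with Pearson's r above each panel. miR-106b rises with miR-93 (r = 0.79) and miR-93 with miR-20a (r = 0.86), while miR-106b and miR-25 form no line (r = 0.06); in the panel of miR-92b and miR-92a (r = 0.60) the bull at 0 is HF replicate 17.

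**Figure D5:**
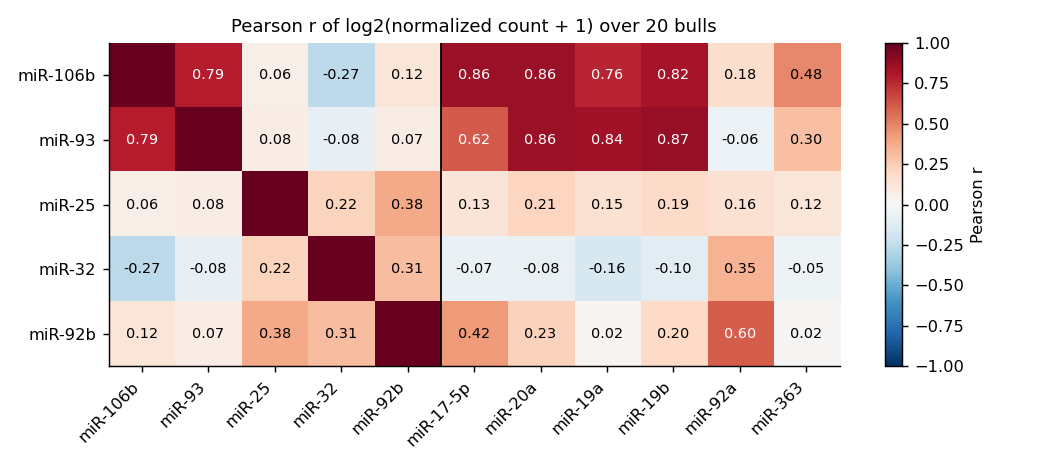
Pearson's r of log2(normalized count + 1) over 20 bulls between the 5 miRNAs (left of the line) and with 6 miRNAs of the paralogous clusters (right of it), on a colour scale from −1 to 1. The rows of miR-106b and miR-93 have r between 0.62 and 0.87 with miR-17-5p, miR-20a, miR-19a and miR-19b, and the row of miR-25 stays between 0.06 and 0.38.

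Among all 251 miRNAs with a median of at least 20 reads outside the 5, those most like each member over the 20 bulls were as follows. miR-106b was most like miR-17-5p (rho = 0.90), bta-miR-204 (0.89) and bta-let-7g (0.86). miR-93 was most like bta-miR-30b-5p (0.93), let-7g (0.87) and miR-20a (0.85). Its rho of 0.76 with miR-106b, its neighbour in MCM7, was thus below those of all 3 of these. miR-25 was most like bta-miR-99b (0.62), bta-let-7f (0.53) and bta-miR-30d (0.49). miR-32 was most like bta-miR-11991 (0.63), bta-miR-9-3p (0.59) and bta-miR-21-5p (0.57), and miR-92b was most like bta-miR-135a (0.78), bta-miR-507b (0.78) and bta-miR-26b (0.77). The median rho of the candidates lay between −0.024 and 0.062 for each of the 5. All points of a library share its depth and scaling, so these values are a description.

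Depth and the summed levels of marker miRNAs were set beside the 5 miRNAs in 30 relations. The white blood cell markers (bta-miR-142-5p, bta-miR-142-3p, bta-miR-223 and bta-miR-150, of which 2 of 4 were found in every bull) summed to between 53.7 and 208 in HF bulls and between 39.1 and 284 in LF bulls. Their sum rose with miR-106b (r = 0.80, permutation p = 6e-05, adjusted p = 0.0017, rho = 0.79) and with miR-93 (r = 0.74, permutation p = 0.00019, adjusted p = 0.0019, rho = 0.78). Most of this sum was bta-miR-142-5p, whose mean over the 20 bulls was 92.6 normalized counts. The means of the others were 21.1 for bta-miR-150, 2.60 for bta-miR-142-3p and 2.02 for bta-miR-223. Relations of the single markers to the 5 miRNAs were not tested. bta-miR-142-3p had a read in 14 of 20 bulls and bta-miR-223 in 16. The sperm markers rose with both as well, with r = 0.62 for miR-106b (permutation p = 0.0032, adjusted p = 0.019, rho = 0.60) and r = 0.75 for miR-93 (permutation p = 0.00011, adjusted p = 0.0017, rho = 0.71). Without the 2 bulls farthest from the median of the sperm sum, r was 0.52 for miR-106b and 0.61 for miR-93. The same step for the white blood cell sum gave 0.78 and 0.72. The sperm sums were between 31972 and 76838 in HF and between 25773 and 54340 in LF bulls, far above those of the white blood cell markers. Most of the sperm sum was bta-miR-34c, with a mean of 35782 over the 20 bulls, against 8146 for bta-miR-449a and 1935 for bta-miR-34b. In the paper's RT-PCR of sperm RNA, PTPRC (leukocytes), CDH1 (epithelial cells) and KIT (germ cells) did not amplify. The part of either cell type in the relation of miR-106b to miR-93 was not tested.

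miR-92b rose with the epithelial markers (the miR-200 family, bta-miR-141, bta-miR-429 and bta-miR-205, of which 5 of 6 were found in every bull), with r = 0.74 (permutation p = 0.0005, adjusted p = 0.0037) and rho = 0.54 (permutation p = 0.015, adjusted p = 0.076). This rested in part on 2 bulls, since r was 0.46 without those farthest from the median and 0.49 without the shallow libraries. Most of the epithelial sum was bta-miR-200a and bta-miR-200b, with means of 6567 and 4118 over the 20 bulls. The epithelial sum was between 6544 and 13138 in HF and between 9680 and 15554 in LF bulls, lower in HF by a log2 difference of −0.27 (permutation p = 0.035, adjusted p = 0.18 over 5 marker sums), and its part in the value of miR-92b was not tested. miR-25 rose with log2 depth with r = 0.48 (permutation p = 0.031, adjusted p = 0.16), and without the 2 bulls farthest from the median r was 0.23. Within the groups this r was 0.45 in HF and 0.70 in LF bulls. miR-92b and log2 depth had an r of 0.44 (permutation p = 0.066, adjusted p = 0.25), which turned to −0.64 without HF replicate 17 and LF replicate 11. miR-32 was lower where the sperm markers were higher, with r = −0.47 (permutation p = 0.037, adjusted p = 0.16) and rho = −0.57 (permutation p = 0.010, adjusted p = 0.060), which did not pass the adjusted threshold. miR-32 had no relation to depth or to a marker sum with an adjusted p-value under 0.05, and neither had miR-25. The red blood cell markers (bta-miR-451, bta-miR-144 and bta-miR-486) summed to between 20.0 and 100.4 and the muscle markers (bta-miR-1, bta-miR-133a and bta-miR-206) to between 17.1 and 145, and neither sum had an adjusted p-value under 0.05 with any of the 5. For miR-25 and the red blood cell sum r was 0.57 in HF and −0.89 in LF bulls and −0.13 over all 20, and the difference between the groups was not tested.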

How the data were processed

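Total RNA of spermatozoa, 1 library per bull, was sequenced as small RNA. Per the labels and the methods, the authors trimmed adapters with cutadapt (version 2.6 in the submitters' processing notes), kept a window of read lengths, removed other short RNAs and counted reads with miRDeep2 on mature miRNAs of miRBase, with alignment by Bowtie to ARS-UCD1.2. The deposited values are a signal per miRNA and library, reads scaled to CPM and divided by a TMM factor, although the table is described as counts. Values of 1 read were found per library, and 95.0% of values were whole reads. The recovered reads served the count tests.

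miRNAs under a value of 1 in at least 10 of 20 bulls were removed, which left 435. limma (version 3.58.1, variance trend, R 4.3.3) was run on log2(value + 1) with no covariate. For ratios and correlations, permutation tests (numpy 2.4.6, 100000 resamples, two-sided) were run with Benjamini-Hochberg adjustment within each family. Ranks for Spearman's rho in these tests were taken with scipy 1.17.1. edgeR 4.0.16 and DESeq2 1.42.0 were alternatives.

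The miRNAs and lists were chosen with earlier results of these data known. Named are the 5 miRNAs, their seed relatives, the paralogous clusters, the 3 most similar miRNAs of each and the marker lists. Seed relatives were taken by name, since mature sequences were not used here. The AI center of a bull is not given in the sources used here. The mRNA libraries were not analysed here.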

Additional observations from a re-analysis of the deposited data

Results flagged for a closer look

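In 28 groups of 10 bulls the extreme bull's distance to its nearest neighbour was divided by the range of the group, and 6 exceeded the 95% critical value of Dixon's test. For normally distributed values, chance alone flags about 1 in 20 groups, or 1.4 of 28, and the ratios share miRNAs, so they are not separate findings. For miR-25 in HF bulls, HF replicate 12 stood at a normalized count of 11318 with the next at 7334 (0.510 of the range). The same bull was lowest in the log2 ratio of miR-32 to miR-25, at −2.72 with the next at −1.92 (0.506). HF replicate 17, with no read of miR-92b, was lowest in the log2 ratio of miR-92b to miR-25, at −11.8 with the next at −8.19 (0.599), and of miR-92b to miR-92a, at −8.45 with the next at −4.34 (0.708). Both values are set by the 1 added to a count of 0. With 3 reads of miR-92b the ratios would be −6.94 and −3.62, and this bull would not be lowest in either. LF replicate 13 was lowest in the log2 ratio of miR-25 to miR-92a, at 1.87 with the next at 3.39 (0.590), and highest in that of miR-106b to miR-20a, at −2.71 with the next at −3.38 (0.577).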

How the results depend on the processing

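The log2 fold changes of the 5 miRNAs kept their direction and stayed at a p-value over 0.05 in 148 of 148 alternatives (pseudocounts of 0.5 and 5, 3 count tests, other scalings, other filters and bulls left out), although miR-106b and miR-92b could not be tested among miRNAs with at least 10 reads in every bull. Leaving out each bull in turn gave −0.33 to −0.05 for miR-106b, 0.016 to 0.18 for miR-93, −0.35 to −0.16 for miR-25, −0.19 to −0.06 for miR-32 and −1.03 to −0.27 for miR-92b. The number of miRNAs with an unadjusted p-value under 0.05 was 15 of 435, against 5 of 158 tested with at least 10 reads in every bull and 10 to 21 when a bull was left out. The number past both thresholds was 9, against 4 with a pseudocount of 5, 15 of 731 tested without the filter, 0 with at least 10 reads in every bull, and 7 to 15 when a bull was left out (15 without HF replicate 6). Differences in log2 ratio near 0 changed sign. miR-25 to miR-106b was 0.12 without the libraries under 400000 reads and −0.28 to 0.11 when a bull was left out, miR-25 to miR-92a was −0.28 to 0.0028 and miR-106b to miR-20a was −0.20 to 0.029. Some correlations, none past the threshold, did so too. Without the shallow libraries r was −0.017 for miR-106b with miR-25, −0.030 for miR-93 with miR-25, −0.12 for miR-93 with miR-92b and −0.028 for miR-25 with miR-92b (0.38 with all bulls), and with no TMM factor it was 0.028 for miR-93 with miR-32. The causes were not tested. The r of miR-106b with miR-93 was 0.76 to 0.80 in these alternatives. No paired analysis was possible because HF and LF bulls were different animals and no pairing of them was given. Depth limits miR-106b and miR-92b most, with as few as 6 and 0 reads in HF replicate 17.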
